A study of Mus musculus with 14 samples.

Results

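The p53 targets of cell cycle arrest are a group of 10 genes that p53 is known to induce and whose products slow, stop or feed back on the cell cycle: Cdkn1a, Btg2, Gadd45a, Plk2, Plk3 and Psrc1, with Mdm2, Ccng1, Sesn1 and Trp53inp1. The genes were chosen by name, with earlier results of these data known. Their probes were found by matching each probe's RefSeq accession to the gene. All 10 were on the array, on 12 of its 55681 probes, and all 10 passed the filter on dim probes, among 21976 features tested. Expression was measured in livers of 14 female B6C3F1 mice, a hybrid strain of laboratory mouse, aged 5 to 6 weeks by the labels. The control group was 4 mice gavaged with corn oil, the vehicle. The other groups were 5 mice gavaged with furan at 1 mg/kg body weight and 5 gavaged with furan at 8 mg/kg, each over 3 weeks. Furan, a small ring compound found in heated foods, is turned by liver cytochrome P450 into a reactive dialdehyde. Every mouse, controls included, drank BrdU, a thymidine analogue that is built into new DNA, for 5 days before necropsy, and livers were taken 4 h after the last gavage. BrdU is thus common to all 3 groups, and its own effect on these genes cannot be read from these samples.

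p53, encoded by Trp53, is a transcription factor that is kept scarce in unstressed cells by the ubiquitin ligase Mdm2 and is stabilised after DNA damage and other stresses. It binds response elements built from paired half-sites and induces genes that halt the cycle, repair DNA or end in cell death, together with Mdm2 itself, which closes a negative feedback loop. In the arrest branch the cyclin-dependent kinase inhibitor p21, encoded by Cdkn1a, keeps RB-family proteins active, and genes of S phase and mitosis are then repressed. Adult hepatocytes are mostly out of cycle, and p21 is known to restrain their re-entry after injury.

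Windows of sequence just before the members' transcription starts are shown because the members share p53 as a regulator. RefSeq (GRCm38.p6) gave 12 windows for 9 of the 10 members and none for Trp53inp1. Each window ran from 250 bases before a start to 50 after it, and was searched for the p53 half-site, a degenerate 10-base motif that reads the same on both strands. Printed here are the 250 bases before the start of the 5 windows that held the half-site, and of the other start of Cdkn1a, which held none, 5′ to 3′ on the gene's strand with the half-sites in capitals.
Cdkn1a, upstream start, chr17:29090729-29090978 (+ strand): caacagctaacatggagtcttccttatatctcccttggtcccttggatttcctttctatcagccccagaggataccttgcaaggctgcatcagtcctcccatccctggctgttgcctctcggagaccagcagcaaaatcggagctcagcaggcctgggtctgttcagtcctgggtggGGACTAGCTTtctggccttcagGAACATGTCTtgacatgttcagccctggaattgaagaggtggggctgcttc
Cdkn1a, downstream start, chr17:29093519-29093768 (+ strand): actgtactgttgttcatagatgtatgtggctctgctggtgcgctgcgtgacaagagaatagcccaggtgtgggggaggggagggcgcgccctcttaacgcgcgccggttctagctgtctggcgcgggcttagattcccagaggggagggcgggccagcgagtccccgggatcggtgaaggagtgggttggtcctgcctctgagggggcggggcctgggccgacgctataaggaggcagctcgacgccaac
Ccng1, chr11:40755287-40755536 (- strand): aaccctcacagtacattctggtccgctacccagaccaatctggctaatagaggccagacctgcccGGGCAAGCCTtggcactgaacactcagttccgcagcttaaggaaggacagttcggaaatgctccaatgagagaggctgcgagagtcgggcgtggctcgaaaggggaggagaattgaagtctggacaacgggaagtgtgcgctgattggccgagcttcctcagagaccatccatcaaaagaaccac
Mdm2, chr10:117710759-117711008 (- strand): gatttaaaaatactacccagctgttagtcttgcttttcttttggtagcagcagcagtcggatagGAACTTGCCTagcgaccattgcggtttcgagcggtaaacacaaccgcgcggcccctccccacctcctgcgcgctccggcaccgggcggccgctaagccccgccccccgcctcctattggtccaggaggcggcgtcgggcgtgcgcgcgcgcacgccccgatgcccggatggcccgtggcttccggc
Gadd45a, chr6:67037408-67037657 (- strand): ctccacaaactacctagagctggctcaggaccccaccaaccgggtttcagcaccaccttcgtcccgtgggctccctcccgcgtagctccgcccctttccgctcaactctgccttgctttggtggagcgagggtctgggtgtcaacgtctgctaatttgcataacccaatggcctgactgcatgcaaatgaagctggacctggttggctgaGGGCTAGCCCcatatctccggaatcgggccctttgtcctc
Sesn1, downstream start, chr10:41887189-41887438 (+ strand): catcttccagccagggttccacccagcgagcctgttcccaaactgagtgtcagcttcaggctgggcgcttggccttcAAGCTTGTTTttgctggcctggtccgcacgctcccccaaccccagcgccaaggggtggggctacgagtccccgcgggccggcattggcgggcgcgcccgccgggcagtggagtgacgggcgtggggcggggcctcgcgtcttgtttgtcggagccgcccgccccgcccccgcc
The upstream start of Cdkn1a had GGACTAGCTT beginning 73 bases before the start and GAACATGTCT beginning 51 bases before it, with 12 bases between them. The search took exact matches only. The letters tgacatgttc, directly after GAACATGTCT with no spacer, miss the motif at their first base alone and so were not marked or counted. In the other windows a single half-site began 185 bases before the start for Ccng1, 186 for Mdm2, 40 for Gadd45a and 173 for Sesn1. Over 32851 mouse promoter windows of the same length, 8.36% held the half-site and 0.0731% held a pair of half-sites with up to 13 bases between them. The windows of Btg2, Plk2, Plk3 and Psrc1 had no half-site in them. The table does not say which transcript a window belongs to, so the windows of Cdkn1a could not be tied to its probes. The CCAAT box (CCAAT, either strand) lay in 8 of the 12 member windows against 37.4% of all windows, and the GC box (GGGCGG, either strand) in 10 of 12 against 35.7%. The windows of Psrc1 overlap each other and share a CCAAT box and a GC box, and the upstream window holds a further CCAAT box. The 250 bases before the members' starts were 54.0% to 73.2% G or C against a median of 52.4% over all windows. TATAAA and TTTGAA, the latter a core of the CHR element of late cell cycle genes, lay in 0 of 12 against 13.6% and 17.9%. A match is a description of the letters in the window, and the known p53 elements of Mdm2 lie in its first intron, outside the window shown.

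Each value is the log2 of a probe's liver signal over its signal from a universal mouse reference RNA on the same array, so 0 means as bright as the reference, and a difference between groups is in log2 units. Differences come from limma's linear model over all 14 arrays with the slide as a block, with standard errors (SE). A gene passed where its p, adjusted by Benjamini-Hochberg over all 21976 features, was under 0.05. The share of probes detected above background in liver was 41.4% to 53.6% per array. In a principal component analysis, 87.2% of the first component (30.7% of the variance) lay between slides, and 85.5% of the second (16.7% of the variance) lay between dose groups. The 14 mice were measured on 5 slides, of which 4 carried a control, a 1 mg/kg and an 8 mg/kg mouse, which allows a difference within each slide. As a check of the label liver, the 7 hepatocyte markers measured had mean log2 ratios of 4.97 to 8.47 in the controls, with the albumin gene Alb at 6.30.

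At 8 mg/kg, 4 of the 10 genes rose against control and 0 fell: Cdkn1a, Ccng1, Trp53inp1 and Mdm2. Over all features 4.09% passed, 2.73% higher and 1.36% lower, so that 66.7% of the calls were rises; with each array centred on its median in place of loess, 96.4% were. The 4 genes that passed were also the 4 whose 8 mg/kg and control mice did not overlap, where 3.47% of all features were higher and 2.13% lower without overlap. The median difference was 0.31 over the 10 genes and 0.00 over all features. Against control, 0 of the 10 genes passed at 1 mg/kg, with a background of 0%, and 0 stood clear of the controls, where 0.523% of all features were higher and 0.305% lower without overlap. The median difference at 1 mg/kg was 0.08 against 0.03 over all features. At an unadjusted p under 0.05, 1 of the 10 genes lay apart from control at 1 mg/kg, against 6.87% of all features.

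**Figure D1:**
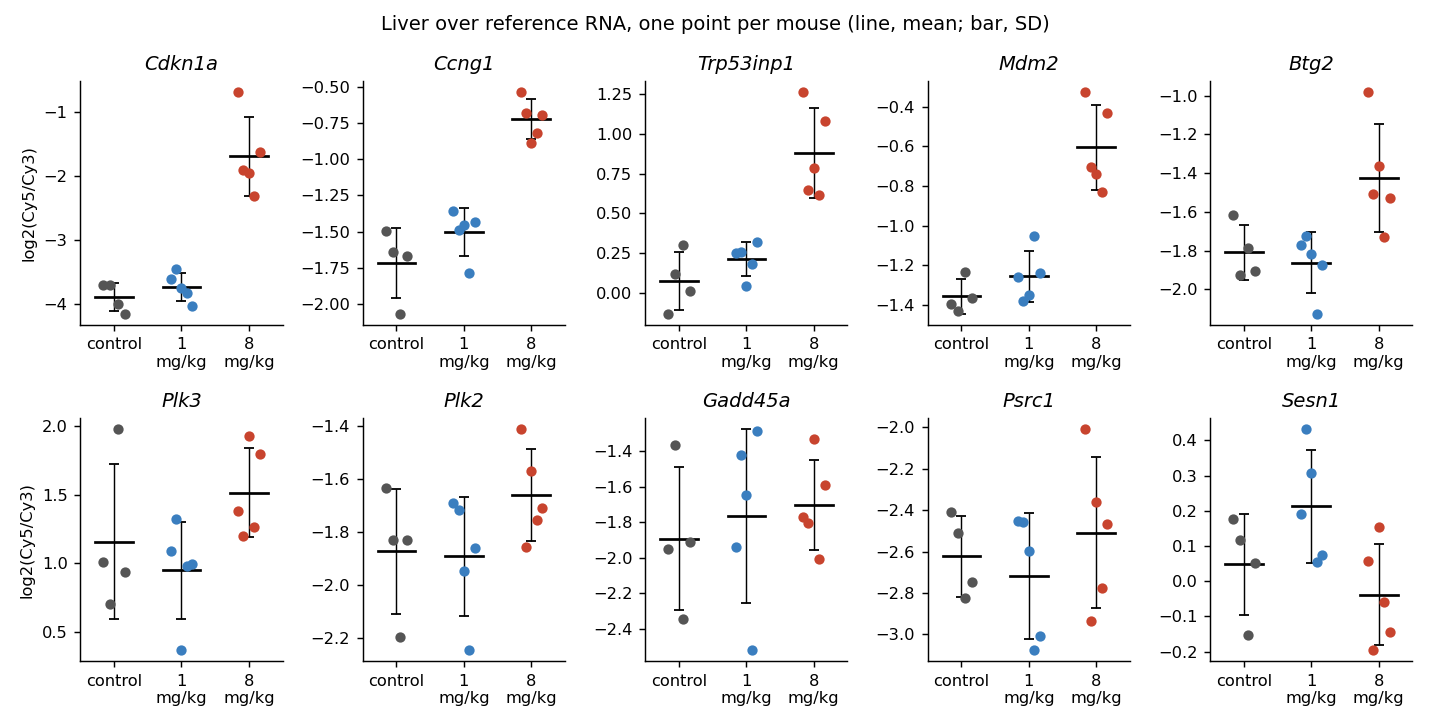
Log2 ratio of liver over reference RNA for the 10 genes, with 1 point per mouse, a line at the group mean and a bar of 1 SD on each side; the vertical scale differs between panels. The 8 mg/kg mice stand clear of the controls for Cdkn1a, Ccng1, Trp53inp1 and Mdm2, and the groups overlap for the other 6 genes.

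Cdkn1a, which encodes p21, had the largest difference of the group. The controls lay at -3.71, -3.71, -4.00 and -4.15, the 1 mg/kg mice at -3.61, -3.45, -3.75, -3.83 and -4.03, and the 8 mg/kg mice at -0.69, -1.92, -1.95, -2.31 and -1.62. Every 8 mg/kg mouse was above every control and every 1 mg/kg mouse, and the other groups overlapped each other. Cdkn1a rose by 2.19 ± 0.17 at 8 mg/kg (SE, n = 5 against 4 mice; 4.57-fold, limma adjusted p = 2.25e-05), the 4th largest rise of all features. Within slides the 8 mg/kg mouse exceeded its control by 3.02 on slide 1, 2.09 on slide 2, 2.08 on slide 3 and 1.85 on slide 4. The 8 mg/kg mouse of slide 1 (replicate 1) was the highest of its group for Cdkn1a, Ccng1, Mdm2, Trp53inp1, Btg2, Plk2 and Psrc1, and the Cdkn1a rise was 1.95 ± 0.11 without it. The 1 mg/kg mice differed from control by 0.15 ± 0.17 for Cdkn1a (adjusted p = 0.873). A second Cdkn1a probe, for another RefSeq transcript, was well above background on 0 of 14 arrays.

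Mdm2, the ubiquitin ligase that degrades p53, had control values of -1.40, -1.43, -1.23 and -1.37. The 1 mg/kg mice lay at -1.26, -1.38, -1.35, -1.05 and -1.24, and the 8 mg/kg mice at -0.33, -0.70, -0.74, -0.83 and -0.43. The 8 mg/kg mice were all above both other groups, and the 1 mg/kg and control mice overlapped. Mdm2 rose by 0.78 ± 0.11 at 8 mg/kg (1.72-fold, limma adjusted p = 0.00114), by 0.53 to 1.07 within the 4 slides. Mdm2 lay 0.13 ± 0.11 above control at 1 mg/kg (adjusted p = 0.81), higher in 4 of 4 slides.

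Ccng1 encodes cyclin G1, which recruits a phosphatase to Mdm2 and so takes part in the same feedback. Its controls lay at -1.50, -1.64, -2.07 and -1.67, the 1 mg/kg mice at -1.36, -1.49, -1.46, -1.78 and -1.43, and the 8 mg/kg mice at -0.54, -0.68, -0.89, -0.82 and -0.69. All 5 mice at 8 mg/kg were above both other groups, and 4 of the 5 mice at 1 mg/kg were above every control. Ccng1 rose by 1.01 ± 0.10 at 8 mg/kg (2.02-fold, limma adjusted p = 0.000119), the smallest within-slide difference being 0.85 and the largest 1.39. Ccng1 was also the gene with an unadjusted limma p under 0.05 at 1 mg/kg, where it lay 0.23 ± 0.10 above control (adjusted p = 0.705). It was higher in 4 of 4 slides, by 0.14 to 0.28, and this difference failed the adjustment.

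Trp53inp1 encodes a nuclear protein that promotes p53 phosphorylation and also takes part in autophagy. The controls lay at -0.13, 0.12, 0.30 and 0.01, the 1 mg/kg mice at 0.25, 0.26, 0.04, 0.18 and 0.32, and the 8 mg/kg mice at 1.26, 0.65, 0.79, 0.62 and 1.08. The 8 mg/kg mice were again above both other groups without overlap. The rise was 0.81 ± 0.14 (1.75-fold, limma adjusted p = 0.00657) and ranged from 0.34 on slide 3 to 1.39 on slide 1. A second, different probe of Trp53inp1 differed by 0.33 ± 0.09 (adjusted p = 0.0572 over probes), so the probes share a direction but not a size or a call. Trp53inp1 at 1 mg/kg differed from control by 0.14 ± 0.14 (adjusted p = 0.856), higher in 2 of 4 slides.

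**Figure D2:**
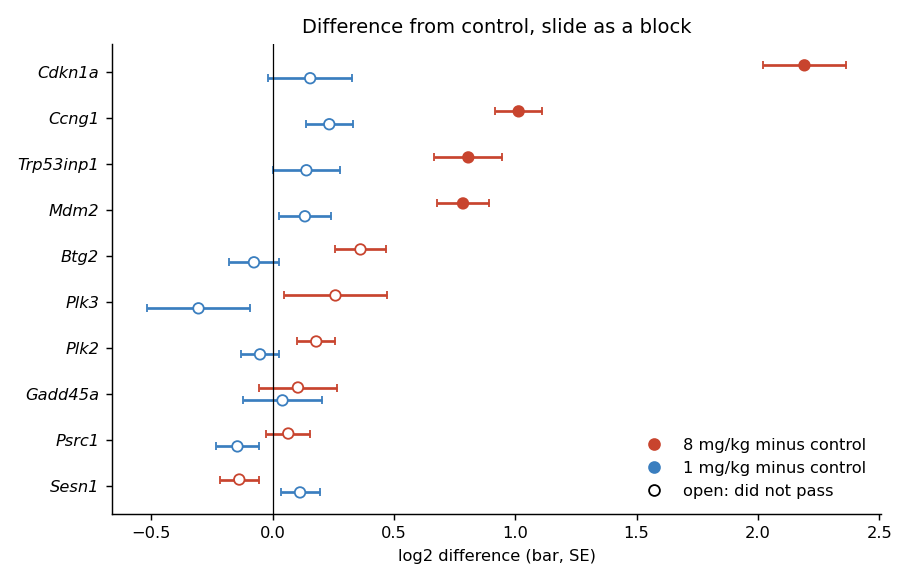
Log2 difference from control for each of the 10 genes at 8 mg/kg (red) and 1 mg/kg (blue), with bars of 1 SE and filled points for differences that passed. Cdkn1a stands at 2.19 at 8 mg/kg, Ccng1, Trp53inp1 and Mdm2 between 0.78 and 1.01, and every 1 mg/kg point is open.

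Sesn1 encodes sestrin 1, which lowers mTORC1 activity under stress, and its values lay the other way from those of the genes above. The controls lay at 0.18, 0.12, -0.15 and 0.05, the 1 mg/kg mice at 0.19, 0.43, 0.31, 0.06 and 0.08, and the 8 mg/kg mice at 0.06, -0.20, 0.15, -0.06 and -0.14. The 3 groups overlapped. The difference at 8 mg/kg was -0.14 ± 0.08 (limma adjusted p = 0.358), below control in 4 of 4 slides at -0.26 to -0.04, and it did not pass. Centring the arrays on their medians turned it to 0.08, while that centring moved the median of all features from 0.00 to 0.14, so Sesn1 stayed below that median.

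Btg2 is an antiproliferative partner of the CCR4-NOT deadenylase. The controls lay at -1.62, -1.93, -1.79 and -1.91, the 1 mg/kg mice at -1.77, -1.72, -1.82, -2.13 and -1.88, and the 8 mg/kg mice at -0.98, -1.51, -1.36, -1.73 and -1.53. Of the 8 mg/kg mice, 4 were above every control and the other lay among them. The difference at 8 mg/kg was 0.36 ± 0.10 (limma adjusted p = 0.0679), higher in 4 of 4 slides, and it missed the threshold. It passed under 2 of the 30 alternatives: with the arrays centred on their medians (0.57 ± 0.12, limma adjusted p = 0.00855) and without 8 mg/kg replicate 4 (0.43 ± 0.11, adjusted p = 0.0484). The centring also moved the median of all features to 0.14. Over the 30 alternatives the difference was smallest at 0.27, without 8 mg/kg replicate 1, and the highest limma adjusted p was 0.206.

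Gadd45a encodes a stress sensor that binds PCNA and the mitotic kinase CDK1. Its values varied within every group, from -2.34 to -1.37 in controls, from -2.52 to -1.29 at 1 mg/kg and from -2.01 to -1.33 at 8 mg/kg. The 3 ranges overlapped. The difference at 8 mg/kg was 0.10 ± 0.16 (limma adjusted p = 0.771), higher in 2 of 4 slides, and that at 1 mg/kg was 0.04 ± 0.16.

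The remaining genes act in mitosis or on the centrosome. Plk2 and Plk3 are Polo-like kinases induced by stress, and Psrc1 encodes a microtubule-binding protein. Plk2 lay between -2.20 and -1.64 in controls and between -1.86 and -1.41 at 8 mg/kg, a difference of 0.18 ± 0.08 (limma adjusted p = 0.214), higher in 4 of 4 slides. Plk3 lay at 1.01, 0.70, 1.98 and 0.94 in controls, at 1.09, 1.32, 0.37, 0.98 and 0.99 at 1 mg/kg, and at 1.38, 1.20, 1.93, 1.27 and 1.80 at 8 mg/kg. Control replicate 3, on slide 3, was above every other mouse for Plk3, and the within-slide difference ran from -0.78 on that slide to 1.09 on slide 2. The difference for Plk3 was 0.26 ± 0.21 at 8 mg/kg (adjusted p = 0.536). With 1 array left out it ran from 0.0151 without 8 mg/kg replicate 5 to 0.55 without control replicate 3. Its highest value over the 30 alternatives was 0.59. Psrc1 lay between -2.82 and -2.41 in controls and between -2.94 and -2.01 at 8 mg/kg, a difference of 0.06 ± 0.09 (adjusted p = 0.743) that did not pass under any of the 30 alternatives and ran from -0.0181 without 8 mg/kg replicate 1 to 0.78 with the scanner's processed signals. On 2 of the 4 control arrays and on every treated array the Psrc1 probe was well above background.

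**Figure D3:**
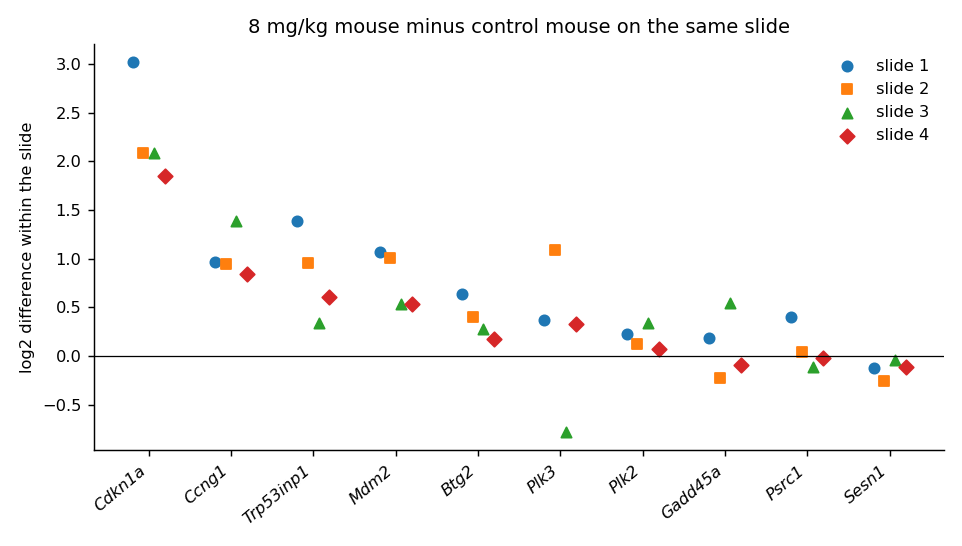
Log2 difference between the 8 mg/kg mouse and the control mouse on the same slide, for the 10 genes and the 4 slides that held both. Cdkn1a runs from 1.85 to 3.02 with slide 1 highest, Ccng1, Trp53inp1, Mdm2, Btg2 and Plk2 lie above 0 on every slide, Sesn1 lies below 0 on every slide, and Plk3 spreads from -0.78 to 1.09.

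Between the doses, 5 of the 10 genes rose at 8 mg/kg against 1 mg/kg and 0 fell, where 5.29% of all features passed, 2.42% higher and 2.87% lower. This comparison shares its 8 mg/kg mice with the comparison against control. Cdkn1a rose by 2.04 ± 0.16 (limma adjusted p = 2.55e-05), Ccng1 by 0.78 ± 0.09 (adjusted p = 0.000348), Trp53inp1 by 0.67 ± 0.13 (adjusted p = 0.0103) and Mdm2 by 0.65 ± 0.10 (adjusted p = 0.00214). Btg2 was the 5th, at 0.44 ± 0.10 (adjusted p = 0.0184), higher in 5 of 5 slides, and it lost its call under 8 of 30 alternative settings. The other 5 genes did not pass: Plk3 lay at 0.56 ± 0.20 (adjusted p = 0.111), Plk2 at 0.23 ± 0.07 (adjusted p = 0.0776), Psrc1 at 0.21 ± 0.08 (adjusted p = 0.157), Gadd45a at 0.06 ± 0.15 and Sesn1 at -0.25 ± 0.07 (adjusted p = 0.0647). Plk3 did pass with the liver channel alone (0.71), without control replicate 3 (0.56), without 8 mg/kg replicate 2 (0.74) and without slide 3 (0.65), with a lowest adjusted p of 0.0279 over the 30 alternatives, and Plk2 did with the authors' ratios (0.26, adjusted p = 0.0496). Sesn1 was lower in 5 of 5 slides and Plk2, Plk3 and Psrc1 were higher in 5 of 5. The groups did not overlap for 4 of the 10 genes, each higher at 8 mg/kg, against 2.01% of all features higher and 1.61% lower without overlap.

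Relatives of the 10 genes gave a mixed picture, and 15 of 16 listed family members were measured. Of these, 3 rose at 8 mg/kg against control (2.73% of all features did), 0 fell (1.36%) and 12 did not pass. Their median difference was 0.10 against 0.00 over all features. Sesn2, the stress-induced sestrin, rose by 0.76 ± 0.12 (limma adjusted p = 0.00269), while Sesn1 lay at -0.14 and Sesn3 at -0.07. Btg3, of the same antiproliferative family as Btg2, rose by 0.70 ± 0.12 (adjusted p = 0.00639), and Btg1, Tob1 and Tob2 lay at 0.16, 0.27 and -0.11. Gadd45g, a relative of Gadd45a that binds the same partners, rose by 0.68 ± 0.16 (adjusted p = 0.0305), a call kept under 17 of 30 alternatives, and Gadd45b lay at 0.10.

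The relatives of the genes with the largest rises did not pass. Of the inhibitors of the p21 family, Cdkn1b (p27) lay at -0.11 ± 0.08 and Cdkn1c (p57) at 0.19 ± 0.11. Mdm4, the p53-binding partner of Mdm2, lay at 0.03 ± 0.13, Ccng2 at 0.09 ± 0.09 and Trp53inp2 at -0.39 ± 0.13 (limma adjusted p = 0.102), with Ccng2 detected above background on 2 of 4 control arrays. Among the Polo-like kinases Plk1, the mitotic kinase, lay at 0.15 ± 0.11 and Plk5 at -0.19 ± 0.14. Against 1 mg/kg, 5 relatives rose at 8 mg/kg: Gadd45g, Sesn2 and Btg3 with Tob1 (0.45 ± 0.11, adjusted p = 0.0252) and Cdkn1c (0.43 ± 0.10, adjusted p = 0.0228). In that comparison 0 relatives fell, and 2.42% of all features rose and 2.87% fell. Of the 15, 0 passed at 1 mg/kg against control. Differences between relatives were not tested.

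**Figure D4:**
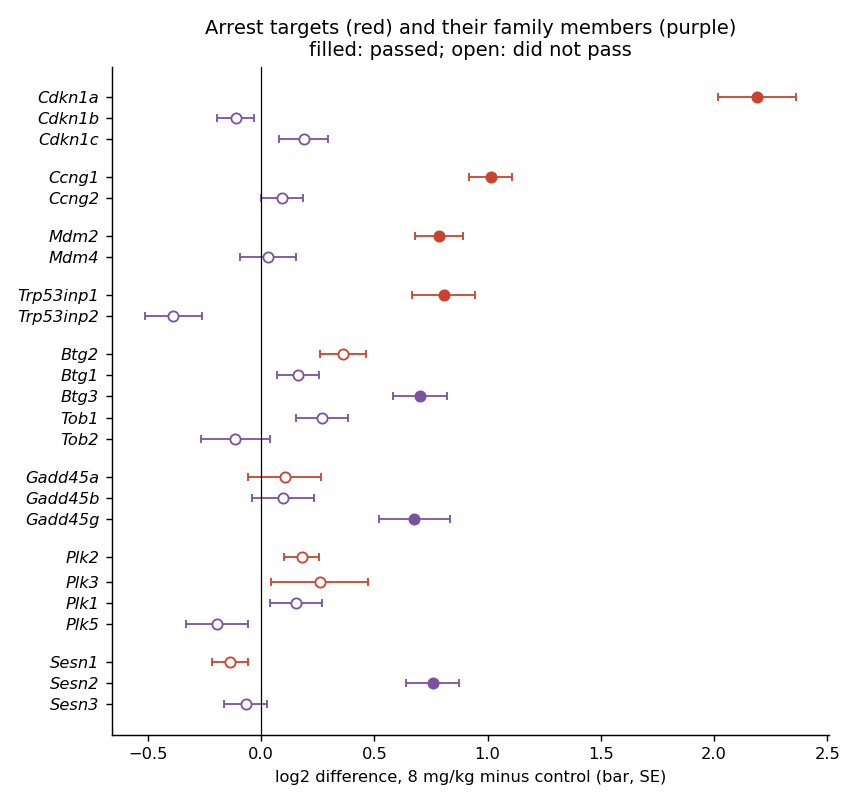
Log2 difference between 8 mg/kg and control, with bars of 1 SE, for the 10 genes (red, except Psrc1, which has no listed relative) and their measured relatives (purple), grouped by family; filled points passed. In the sestrin, BTG and GADD45 families the filled point is a relative (Sesn2 at 0.76, Btg3 at 0.70, Gadd45g at 0.68), and in the families of Cdkn1a, Ccng1, Mdm2 and Trp53inp1 it is the gene itself.

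The rest of the p53 pathway was described with lists of other genes. Of 23 genes for p53, its kinases, cofactors and regulators, all measured, 0 passed in any of the 3 comparisons. Of all features 4.09% passed at 8 mg/kg against control, 0% at 1 mg/kg against control and 5.29% between the doses. The differences of the 23 at 8 mg/kg ran from -0.26 to 0.34 with a median of 0.06. With the arrays centred on their medians 2 of them rose, where 1303 of 21976 features did. Where a probe had to be well above background on every array of a group, 1 of 21 rose, and 646 of 18909 features did. At an unadjusted p under 0.05 there were 6 of the 23 at 8 mg/kg, against 20.3% of all features. Trp53 itself lay at -0.02 ± 0.13 (limma adjusted p = 0.957), and Ppm1d, a phosphatase that p53 induces and that dampens it, at 0.20 ± 0.08 (adjusted p = 0.199). Array values are RNA levels and carry no measure of p53 protein.

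Of 35 other p53 targets, chiefly of cell death, DNA repair and metabolism, 30 were measured. Against control 8 of them rose at 8 mg/kg (2.73% of all features did), 1 fell (1.36%) and 21 did not pass, with a median of 0.13. The largest rises were those of Gdf15, a secreted stress cytokine (1.56 ± 0.17, limma adjusted p = 0.000338), Aen, a nuclease of apoptosis (1.26 ± 0.10, adjusted p = 2.25e-05), and Phlda3, a repressor of AKT (1.18 ± 0.15, adjusted p = 0.000955). Ddit4l, an inhibitor of mTORC1, rose by 0.95 ± 0.10, Zmat3, an RNA-binding protein, by 0.82 ± 0.09, and Tnfrsf10b, a death receptor, by 0.77 ± 0.10. In the controls the Ddit4l probe exceeded background clearly on 1 of 4 arrays and the Tnfrsf10b probe on 3 of 4, so the sizes of these rises are less certain: over the 30 alternatives they ran from 0.78 to 2.34 for Ddit4l and from 0.69 to 1.77 for Tnfrsf10b. The fall was that of Sytl1, at -0.71 ± 0.12 (adjusted p = 0.00547), called under 29 of 30 alternatives. Sytl1 lies outside the naming rule and was named after its values were seen, as the 1 gene of the list that fell. Of the 30, 0 passed at 1 mg/kg.

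**Figure D5:**
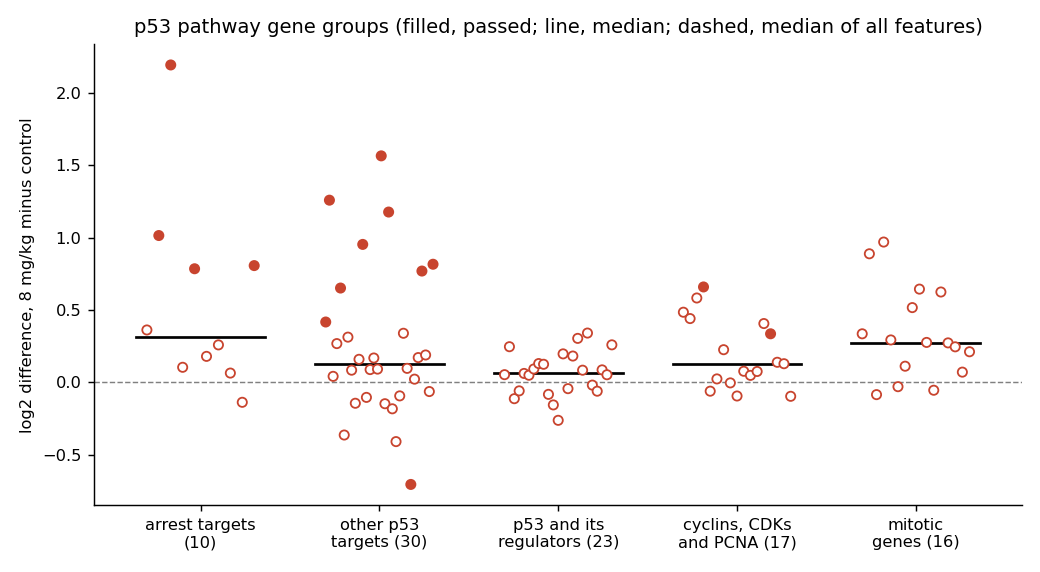
Log2 difference between 8 mg/kg and control for the 10 arrest targets and for 4 other lists of the p53 pathway, 1 point per gene, with filled points for genes that passed, a line at each list's median and a dashed line at the median of all features. The arrest targets and the other p53 targets each hold a tail of filled points up to 2.19 and 1.56, the list of p53 and its regulators has none, and the mitotic genes are all open with a median of 0.27.

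Genes that p21 acts on downstream were also listed. Of 17 measured cyclins, cyclin-dependent kinases, RB and E2F genes and Pcna, 2 rose at 8 mg/kg against control and 0 fell. Their median was 0.13, and of all features 2.73% rose and 1.36% fell. Ccnd1, the G1 cyclin D1, rose by 0.66 ± 0.13 (limma adjusted p = 0.0158; called under 23 of 30 alternatives), and Pcna, the sliding clamp of DNA replication that p21 also binds, by 0.34 ± 0.09 (adjusted p = 0.0484; called under 8 of 30). Ccnb1, the mitotic cyclin B1, lay at 0.44 ± 0.21 (adjusted p = 0.252) and was detected above background on 2 of 4 control arrays.

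Of 16 measured mitotic genes that are known to be repressed through p21, 0 passed at 8 mg/kg, 7 had an unadjusted p under 0.05 (20.3% of all features did), and their median was 0.27 with a range of -0.08 to 0.97. Mki67, the proliferation marker Ki-67, lay at 0.62 ± 0.22 (limma adjusted p = 0.122). The mean log2 ratio over the 16 genes, with slide effects left in, was -3.50, -3.58, -4.03 and -3.90 in controls. It was -3.69, -3.42, -3.75, -3.78 and -3.83 at 1 mg/kg, and -2.65, -3.84, -2.98, -3.93 and -3.32 at 8 mg/kg. Of the 5 mice at 8 mg/kg, 3 were above every control and the other 2 were within the control range. At 1 mg/kg only replicate 2 was above every control. That mouse and 8 mg/kg replicate 3 (-2.98) were on slide 5, which held no control. The highest mouse by this mean, 8 mg/kg replicate 1, was also the highest for Cdkn1a. Without it the median over the list was 0.09 and 0 genes rose. Without 8 mg/kg replicate 2 the median was 0.34 and 2 of the 16 genes rose, where 511 of 21678 features did. Without 8 mg/kg replicate 4 the median was 0.39 and 1 gene rose, where 505 of 21676 features did. With the arrays centred on their medians 8 of the 16 genes rose. There 1303 of all 21976 features rose and the median of all features moved up to 0.14.

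Marker genes of liver cell types were set beside these results, since in bulk liver a change in the number of cells of a type and a change in RNA per cell cannot be told apart. At 8 mg/kg against control, 4.09% of all features passed. Of the markers, 0 of 7 for hepatocytes, 0 of 9 for Kupffer cells and macrophages and 0 of 8 for sinusoidal endothelium passed. So did 0 of 8 for stellate cells, 0 of 6 for lymphocytes and 0 of 3 for neutrophils. The medians of these lists, in the same order, were 0.03, 0.03, -0.03, -0.02, -0.12 and -0.05. Alb lay at 0.03 ± 0.12. Of 7 cholangiocyte markers 1 rose (2.73% of all features did), Prom1, by 1.24 ± 0.15 (limma adjusted p = 0.000767), while the list's median was -0.01. The summed linear ratio of the 7 cholangiocyte markers was 7.94 to 14.3 in controls and 19.2 to 30.2 at 8 mg/kg. Prom1 was the brightest of them over the reference (mean log2 ratio 3.08 in controls) and weighs most in that sum. The mean log2 ratio of the 7, in which each gene counts alike, overlapped: -1.45 to -1.19 in controls and -1.38 to -0.95 at 8 mg/kg. Of 3 measured pancreas markers 1 fell (1.36% of all features did), Amy2a5, by 0.73 ± 0.11. The other 2 did not pass, and the list's median was -0.11. At 8 mg/kg against 1 mg/kg, 1 cholangiocyte marker rose (2.42% of all features did), and 1 stellate cell marker and 1 pancreas marker fell (2.87%). No marker of the other cell types passed there. The part of these cell types in the values of the 10 genes was not tested.

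Likeness to Cdkn1a was taken across the 14 mice after removing slide effects fitted together with dose, which leaves the dose differences in. By this measure the named genes outside the group most like Cdkn1a were Afp (Pearson r = 0.991), Gstm1 (0.988), Cbr3 (0.982), Phlda3 (0.979), Desi2 (0.979) and Ifrd1 (0.978). These correlations describe mice that fall into a high-dose cluster and the rest, share slides and reference, and carry no p. Genes chosen for likeness to Cdkn1a had to differ at 8 mg/kg, so their values are a description. Within the group of 10 the same measure was 0.967 for Mdm2, 0.952 for Ccng1, 0.940 for Trp53inp1, 0.900 for Btg2 and 0.891 for Plk2. It was 0.643 for Psrc1, 0.509 for Plk3, 0.223 for Gadd45a and -0.746 for Sesn1. At 8 mg/kg Afp, the alpha-fetoprotein gene, lay 1.90 ± 0.13 above control. Gstm1, a mu-class glutathione S-transferase, lay 0.88 ± 0.11 above it, and Cbr3, a carbonyl reductase, 1.58 ± 0.20. The 8 mg/kg mice ran from -0.36 to 0.72 for Afp, against -1.80 to -1.70 in controls, and from 4.22 to 4.60 for Gstm1, against 3.26 to 3.90.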

How the data were processed

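On every array the liver RNA of a mouse carried Cy5 and the universal reference RNA carried Cy3, per the labels. The deposited scanner files hold spot intensities with their local backgrounds, read with Feature Extraction 10.7.3.1 per the file headers. A series table holds linear ratios of Cy5 over Cy3 as normalized by the authors. The sources used here do not state how. On the log2 scale they correlated at 0.992 to 0.995, array by array, with the ratios derived from the intensities, and they served as an alternative.

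Median spot intensities were background-corrected with normexp (offset 50) and normalized by loess within arrays in limma 3.58.1 (R 4.3.3), with data.table (version 1.17.8) for joins. Control spots had no weight, 178 to 336 flagged spots per array were left out, and 0 spots were saturated. Probes well above background in the liver channel on at least 4 of 14 arrays were kept (28867 of 55681), and the brightest probe stood for a gene. Probe accessions named 26413 probes through RefSeq annotation of assembly GRCm38.p6 and left 29268 unnamed; unnamed features were tested but not reported. Differences were fitted with lmFit and eBayes on all 14 arrays with slide as a fixed block, and p-values were adjusted by Benjamini-Hochberg (threshold 0.05). The fit was tested on simulated data. The number of arrays limits the precision.

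The 10 genes and all lists were chosen with earlier results of these data known. The rule for named genes took all 10, their measured relatives, up to 6 genes of every other list with the largest differences among those that passed at 8 mg/kg against control, 7 fixed genes (Trp53, Ppm1d, Pcna, Ccnb1, Ccnd1, Mki67 and Alb), and the 6 named genes outside the group most correlated with Cdkn1a. The mice of a group are biological replicates per the design text. Alternatives covered background correction, normalization, filter, probe choice, block, prior and left-out arrays. Figures were drawn with matplotlib 3.10.9.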

Additional observations from a re-analysis of the deposited data

How the results depend on the processing

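Of the 30 alternatives, all 30 kept the calls of Cdkn1a, Ccng1, Mdm2 and Trp53inp1 in both comparisons of 8 mg/kg, with differences from control of 1.95 to 2.65, 0.90 to 1.24, 0.68 to 0.98 and 0.57 to 1.02; Aquantile leaves log ratios as they are by construction. The count over the 10 genes was 4 or 5 against control, 4 to 6 against 1 mg/kg, and 0 at 1 mg/kg. Against 1 mg/kg Plk3 gained a call under 4 alternatives and Plk2 under 1. Btg2 lost its call against 1 mg/kg without the slide, with offset 0, with the replicate block, with scanner signals, and without slide 3, 1 mg/kg replicate 1, 1 mg/kg replicate 4 or 8 mg/kg replicate 1. Over all features, 898 passed between 8 mg/kg and control and 1162 between the doses. These became 1352 (96.4% higher in place of 66.7%) and 410 (68.3% in place of 45.7%) with median centring, 273 and 297 without the slide, 373 and 477 with offset 0, and 389 and 430 with scanner signals; with the liver channel alone 52.3% of 1331 calls against control were higher. Fitting only the arrays of both groups gave 292 against control, and leaving out slide 3 gave 407. With 1 array left out the counts ran from 315 (without 8 mg/kg replicate 1) to 871, and from 419 (without the same array) to 1252. At 1 mg/kg, 0 became 4 with median centring, 1 with the authors' ratios, the trended robust prior, no background correction, no dim filter or offset 0, and 0 to 3 with an array left out. The replicate block in place of the slide gave 122 and 150 and changed no call of the 10 genes but that of Btg2. Deviations of same-numbered mice from their group means correlated at -0.42 to 0.23 on different slides (9 pairs). On the same slide they correlated at 0.09 to 0.25 (4 pairs). Slide effects were left in these values, so they cannot tell whether the numbers mark a pairing.

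Differences that changed sign were those that never passed. At 1 mg/kg Btg2 turned to 0.0857 (median centring) and 0.00288 (without slide 3), Plk2 to 0.0803 (median centring), 0.0279 (offset 0) and 0.00196 (scanner signals), Psrc1 to 0.0867 (offset 0), 0.0970 (liver channel) and 0.414 (scanner signals), and Gadd45a to -0.000949 (liver channel). Without slide 3 Gadd45a was -0.0998 against 1 mg/kg and -0.0143 against control. With an array left out Gadd45a ran from -0.155 to 0.165 at 1 mg/kg, from -0.0748 to 0.237 for 8 against 1 mg/kg and from -0.0519 to 0.244 against control, and Psrc1 from -0.0181 to 0.111 against control, where scanner signals gave 0.776 for Psrc1. Sesn1 turned to 0.0797 at 8 mg/kg against control with median centring. The cause was not tested.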
